A study of Mus musculus with 2 samples.

Results

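The 32 genes described here encode scaffolds and signalling proteins of the excitatory postsynapse, out of 43346 Ensembl genes in the deposited tables. They are a fixed list of symbols, each matched to 1 Ensembl identifier in both libraries. Total RNA was sequenced from midbrain of mouse embryos of strain B6NCrl at embryonic day 16.5, as 1 group of 2 biological replicates without a treated or mutant group. Each replicate was a pool of male and female embryos under the same donor identifier, and the pool of replicate 2 held 37 embryos. Each library started from 10 ng of RNA longer than 200 nucleotides with added spike-ins. Expected counts, the estimated reads per gene, summed to 31830355 in replicate 1 and 36576263 in replicate 2. Levels are in TPM, a scale of transcript abundance corrected for transcript length and set to 1 total per library, and values with ± are the mean and SD of the 2 replicates. No contrast between conditions exists, so no p-value is given, and a difference between the pools describes these 2 libraries.

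The postsynaptic density is the protein mat beneath glutamate receptors at excitatory synapses. DLG (MAGUK) proteins bind receptor tails, DLGAP proteins link them to SHANK proteins, and HOMER proteins tie SHANK to metabotropic receptors. CaMKII, the calcium and calmodulin dependent kinase, is both an enzyme and a structural component there, and several of these proteins also have roles outside synapses. In RNA from whole tissue, fewer cells of a type and less RNA per cell cannot be told apart.

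The tissue label was checked against marker genes. The 6 neuron markers all exceeded 10 TPM in both libraries, and Gata3, a factor of midbrain GABA neurons, had 71.4 TPM in replicate 1 and 77.2 TPM in replicate 2. Of 7 midbrain markers 6 were detected, and En2 stayed at 0.61 and 0.46 TPM. Of 6 cortex and hippocampus markers 3 were detected in both, led by Prox1 at 28.0 and 13.1 TPM. Neurod6 had 11.4 and 15.2 TPM, and Tbr1 had 2.80 and 2.00 TPM. Slc17a7, the vesicular glutamate transporter of many cortical and hippocampal neurons, had 0.38 and 0.72 TPM. Whether the pools held some cortical tissue was not tested. The pools differed in cell cycle genes, since all 6 dividing cell markers were higher in replicate 1, with a median log2 ratio of 0.42. Of the 4 astrocyte markers with enough counts, 3 were lower in replicate 1. So were 5 of 6 oligodendrocyte lineage markers and 5 of the 6 midbrain markers compared, with median log2 ratios of -0.28 and -0.23. Their part in the differences between pools below was not tested.

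Some sequences show where the RNA forms of these genes part, and they are printed before the levels. Dlgap4 and Grip1 had leading forms that begin far inside the gene, and the windows at or near these internal starts come from RefSeq on GRCm38.p6, 250 bases before to 50 bases after a RefSeq start. Both lie on the plus strand, and CG pairs are in capitals. The RefSeq start of the Dlgap4 window, at chr2:156720715-156721014, lies 80 bases before the annotated start of the form Dlgap4-204, which is 31 bases past the end of the window. The Grip1 window, at chr10:119819139-119819438, is placed on the start of Grip1-205.
Dlgap4 window near the internal start: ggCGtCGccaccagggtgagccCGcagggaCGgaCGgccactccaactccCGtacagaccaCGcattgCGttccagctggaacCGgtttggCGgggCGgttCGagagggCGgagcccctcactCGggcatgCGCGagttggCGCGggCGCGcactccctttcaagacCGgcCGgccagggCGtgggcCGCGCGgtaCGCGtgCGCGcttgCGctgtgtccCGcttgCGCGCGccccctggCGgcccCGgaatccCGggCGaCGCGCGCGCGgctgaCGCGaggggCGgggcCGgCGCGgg
Grip1 internal start: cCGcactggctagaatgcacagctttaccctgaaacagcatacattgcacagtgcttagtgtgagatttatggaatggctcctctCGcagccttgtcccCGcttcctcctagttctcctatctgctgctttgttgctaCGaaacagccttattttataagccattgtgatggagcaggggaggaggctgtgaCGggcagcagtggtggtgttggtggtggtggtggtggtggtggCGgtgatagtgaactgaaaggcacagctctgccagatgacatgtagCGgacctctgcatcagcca
The Dlgap4 window holds 50 CG pairs, a number that 0.855% of the 32851 RefSeq windows of this length reach, whereas the Grip1 window holds 7. The median over all windows is 7, and the median over the windows of the 27 members that have one is 16. These are counts of letters and no measure of promoter use.

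The CaMKII genes Camk2b, Camk2d and Camk2g are shown by the coding exons that their forms include or skip. The exons fall in the linker between the kinase and the association domain, which in CaMKII varies by splicing. Each exon is in capitals with 20 bases of the neighbouring exons in lower case, in transcript orientation, from the GENCODE M21 transcripts on GRCm38. The Camk2b exons lie on the minus strand at chr11:5981070-5981114 and chr11:5987057-5987131, the Camk2d exon on the plus strand at chr3:126805857-126805916, and the Camk2g exons on the minus strand at chr14:20745792-20745860 and chr14:20747819-20747851.
Camk2b exon of 45 bases: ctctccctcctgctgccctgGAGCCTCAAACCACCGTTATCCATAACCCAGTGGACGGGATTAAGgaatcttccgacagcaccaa
Camk2b exon of 75 bases: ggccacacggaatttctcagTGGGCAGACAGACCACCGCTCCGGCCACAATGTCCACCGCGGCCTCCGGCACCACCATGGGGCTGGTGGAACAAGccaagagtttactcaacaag
Camk2d exon of 60 bases: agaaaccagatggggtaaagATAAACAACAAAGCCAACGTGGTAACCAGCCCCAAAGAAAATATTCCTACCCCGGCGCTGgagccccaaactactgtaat
Camk2g exon of 69 bases: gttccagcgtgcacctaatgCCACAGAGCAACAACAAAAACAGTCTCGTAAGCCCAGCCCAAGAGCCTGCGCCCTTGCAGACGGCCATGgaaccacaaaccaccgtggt
Camk2g exon of 33 bases: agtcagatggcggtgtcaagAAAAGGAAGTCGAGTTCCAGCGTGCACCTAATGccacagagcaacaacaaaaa
All 5 exons are whole numbers of codons long, so skipping them keeps the reading frame.

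Homer1 is shown where its short and long coding forms part. Both share the 20 bases in lower case. The short form Homer1-204 then reads on into the intron, at chr13:93356080-93356110 on the plus strand, up to the end of its coding sequence. The long form Homer1-202 splices to its next exon, whose first 31 bases, at chr13:93387524-93387554, are in capitals.
Homer1-204: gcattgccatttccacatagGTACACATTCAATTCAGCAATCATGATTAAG
Homer1-202: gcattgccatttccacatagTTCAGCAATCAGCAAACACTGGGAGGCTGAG

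All 32 genes were detected, that is at 1 TPM or more in both libraries, as were 62.1% of the 21474 protein-coding genes. At a TPM of 10 or above in each library stood 22 of the 32 genes, against 41.2% of protein-coding genes. At a TPM of 100 or above stood 2 of 32, Dlgap4 and Camk2b, against 7.75%. The median of the 32 genes was 15.8 TPM in replicate 1 and 16.4 TPM in replicate 2, or 16.1 ± 0.378 TPM. Over all protein-coding genes the median was 5.23 TPM, and over the detected ones it was 20.3 TPM. The 32 genes summed to 1051 and 1059 TPM, and 23 of them had a mean of 5 to 50 TPM. The 5 highest, Dlgap4, Camk2b, Pick1, Cyfip2 and Camk2d, made up 56.0% and 56.9% of that sum. The lowest count was that of Iqsec2, 242 with an exact 95% Poisson interval of 212 to 274 in replicate 1, and 277 with 245 to 312 in replicate 2. The highest was that of Cyfip2, 9911 with 9717 to 10108, and 10965 with 10761 to 11172. The intervals express counting error alone, and reads that lack molecular identifiers need not be separate molecules.

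**Figure D1:**
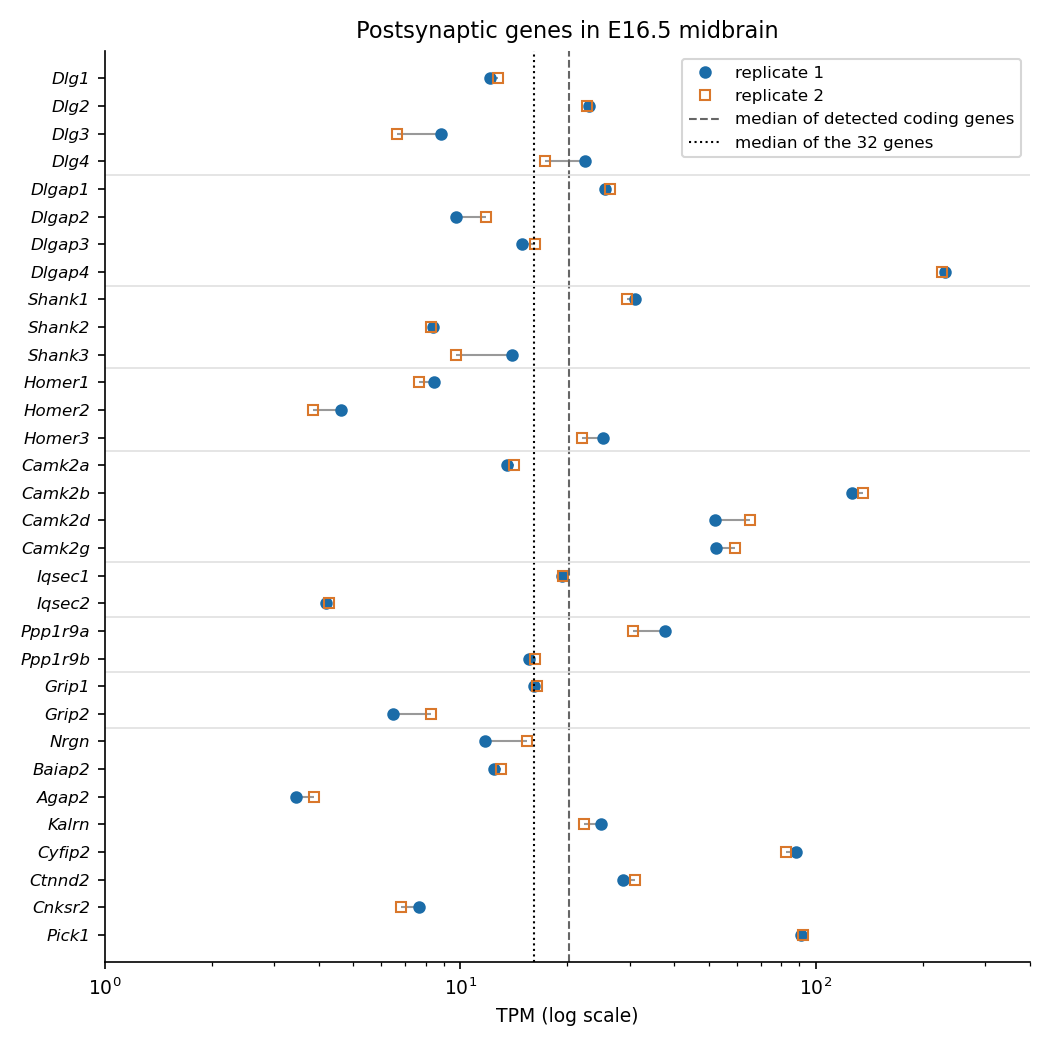
Level of each of the 32 genes in TPM on a log axis, with replicate 1 as filled circles and replicate 2 as open squares. Faint lines separate the paralog families, and vertical lines mark the median of the 32 genes (16.1 TPM) and of the detected protein-coding genes (20.3 TPM). Most pairs lie close together, and the widest gap on this axis is that of Shank3.

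Among the DLG scaffolds, which hold glutamate receptors and potassium channels in the membrane, Dlg2 (PSD-93) and Dlg4 (PSD-95) stood highest. Dlg2 had 23.0 TPM in replicate 1 and 22.7 TPM in replicate 2. Dlg4 had 22.4 and 17.3 TPM. Dlg1 (SAP97), which also organises epithelial and immune cells, had 12.1 and 12.8 TPM, and Dlg3 (SAP102), known as the early DLG of the rodent forebrain, had 8.84 and 6.65 TPM. Dlg4 exceeded Dlg3 in both libraries, with a log2 ratio of 1.36 ± 0.026, or 2.57-fold. The log2 ratio fell to 0.52 when expected counts were not corrected for length. Dlg2 and Dlg4 were not separated beyond their spread, with a log2 ratio of 0.21 ± 0.25, and no DLG gene reached 50% of the family's 62.9 ± 4.92 TPM.

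The DLGAP (GKAP/SAPAP) adaptors, which bind the guanylate kinase domain of DLG proteins and the PDZ domain of SHANK, were led by Dlgap4. Dlgap4 had 231 and 227 TPM, the highest level among the 32 genes and above 95.04% of detected protein-coding genes. Dlgap1 had 25.6 and 26.4 TPM, Dlgap3 had 14.9 and 16.3 TPM, and Dlgap2 had 9.72 and 11.8 TPM. Dlgap4 thus held 82.1% and 80.6% of the family's TPM, and no other DLGAP gene came near it in either library. This order holds for the gene totals, whereas the forms behind them differ, as described below.

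Of the SHANK genes, the large scaffolds that join DLGAP, HOMER and actin regulators, Shank1 was the highest at 31.0 and 29.5 TPM. Shank2 had 8.38 and 8.29 TPM, and Shank3 had 14.0 and 9.74 TPM. Shank1 exceeded Shank2 by a log2 ratio of 1.86 ± 0.041, or 3.63-fold, in the same direction in both libraries. Shank3 over Shank2 had a log2 ratio of 0.74 in replicate 1 and 0.23 in replicate 2, and it turned to -1.56 when expected counts were not corrected for length. Over all transcripts, the 3 genes summed to 50.5 ± 4.18 TPM, below the 62.9 TPM of the DLG genes and the 281 ± 0.198 TPM of the DLGAP genes. The order against the DLG genes turned by expected counts, and also in the long coding forms described below. Shank1 alone had 4128 and 4584 expected counts, while Dlg2, the highest DLG gene, had 1208 and 1350.

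In the HOMER family, whose proteins bind proline-rich motifs in metabotropic receptors and SHANK, Homer3 was highest in TPM with 25.2 and 22.0. Homer1 had 8.42 and 7.66 TPM and Homer2 had 4.63 and 3.85 TPM. This order depends on the transcript lengths used. Homer2 had more reads than either, 934 and 905 expected counts, against 805 and 783 for Homer3 and 492 and 529 for Homer1. Those reads were divided by a Homer2-201 model of 10999 bases, which has 1736 bases in GENCODE M21. Homer3 also shares 874 exonic bases, 25.4% of its total, with Ddx49, an RNA helicase gene on the opposite strand at 38.0 and 33.6 TPM. The use of strand in the counting is not given in the sources used here, so reads of this stretch cannot be assigned with certainty.

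The CaMKII genes summed to 260 ± 21.2 TPM. Camk2b, the beta subunit that also binds actin, had 127 and 136 TPM, which was 51.8% and 49.5% of the family. Camk2d, the delta subunit found in many tissues, had 52.1 and 65.4 TPM, and Camk2g, the gamma subunit, had 52.4 and 59.3 TPM. Camk2a, the alpha subunit that predominates in adult forebrain, had 13.5 and 14.1 TPM. Camk2b exceeded Camk2a by 9.49-fold, a log2 ratio of Camk2a over Camk2b of -3.25 ± 0.025. Camk2d and Camk2g overlapped in TPM over all transcripts, and both were higher in replicate 2. By expected counts Camk2g was higher in both libraries, with 3434 and 4523 against 2887 and 4139 for Camk2d.

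The proteins that handle receptors and calcium signals spanned a wide range. Pick1, which binds and internalises AMPA receptors, had 91.1 and 92.3 TPM, although 18.6% of its exonic bases are shared with a second coding gene on the same strand, Gm49486, which is not analysed here. Grip1, a multi-PDZ adaptor of AMPA receptors, had 16.1 and 16.5 TPM, and its paralog Grip2 had 6.46 and 8.26 TPM. Nrgn (neurogranin), which binds calmodulin at low calcium, had 11.7 and 15.4 TPM. Gap43, its presynaptic and growth cone relative, had 1506 and 1661 TPM, or 118-fold more. Cnksr2, a scaffold of Ras signalling, had 7.68 and 6.80 TPM, and its 2 libraries lay close.

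Regulators of actin, small GTPases and adhesion at spines included the other abundant members. Cyfip2, a subunit of the WAVE complex that drives actin branching, had 88.0 and 82.6 TPM, 2.56-fold above its paralog Cyfip1. Ppp1r9a (neurabin) had 37.7 and 30.6 TPM and Ppp1r9b (spinophilin) had 15.6 and 16.2 TPM. Both proteins bind actin and target protein phosphatase 1. Kalrn (kalirin), an exchange factor for Rac, had 25.0 and 22.3 TPM, and Ctnnd2 (delta-catenin), which binds cadherins, had 28.6 and 31.0 TPM. Baiap2 (IRSp53), which bends membranes at filopodia, had 12.4 and 13.0 TPM. The exchange factors for ARF6 differed: Iqsec1 had 19.4 and 19.5 TPM, and Iqsec2 had 4.18 and 4.27 TPM. Agap2, a GTPase-activating protein that also enhances PI3 kinase, was the lowest of all at 3.44 and 3.87 TPM.

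Other genes of the same pathways were taken from lists. All 30 other postsynaptic density genes were detected and 19 reached 10 TPM in both libraries, with a median of 17.7 ± 0.290 TPM. Arc, an activity-induced gene, had 2.65 and 2.78 TPM. Of the 10 glutamate receptor subunits and partners that the scaffolds bind, 9 reached 10 TPM, with a median of 32.7 ± 0.516 TPM. Gria2 led them at 202 and 217 TPM, while Grin2a, the NMDA receptor subunit that rises after birth in rodents, had 4.87 and 5.80 TPM beside Grin2b at 34.0 and 35.0 TPM. The 17 actin and Rac regulators of spines had a median of 57.6 ± 2.70 TPM, led by Dbn1 (drebrin) at 570 and 514 TPM. The 16 calmodulin and calcineurin genes had a median of 97.1 ± 3.01 TPM. The 5 genes measured of 6 listed for the inhibitory postsynapse were all detected, with a median of 27.4 ± 1.58 TPM.

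The level of a gene is the sum over its annotated transcripts, and the kinds of transcript differed widely among these 32 genes. The counts below cover these genes alone, and the same shares over all genes were not computed. A long form means here a complete coding sequence of at least 60% of the longest one of the gene in GENCODE M21. Long forms made up 50% or more of TPM in both libraries for 21 of the 32 genes, and 90% or more for 11. They fell below 50% in both libraries for 9. By expected counts, where a read weighs the same on a short and a long transcript, the number at 50% or more was 27 and the number below was 4. The median share of long forms was 82.4 ± 0.955% by TPM and 89.8 ± 0.973% by counts. The median TPM of the 32 genes was 11.7 ± 1.11 when only long forms were summed. Non-coding means here any transcript not annotated as protein-coding. The class holds retained introns and also nonsense-mediated decay models, which can carry an annotated coding sequence. Non-coding transcripts held 20% or more of TPM in both libraries for 9 genes.

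**Figure D2:**
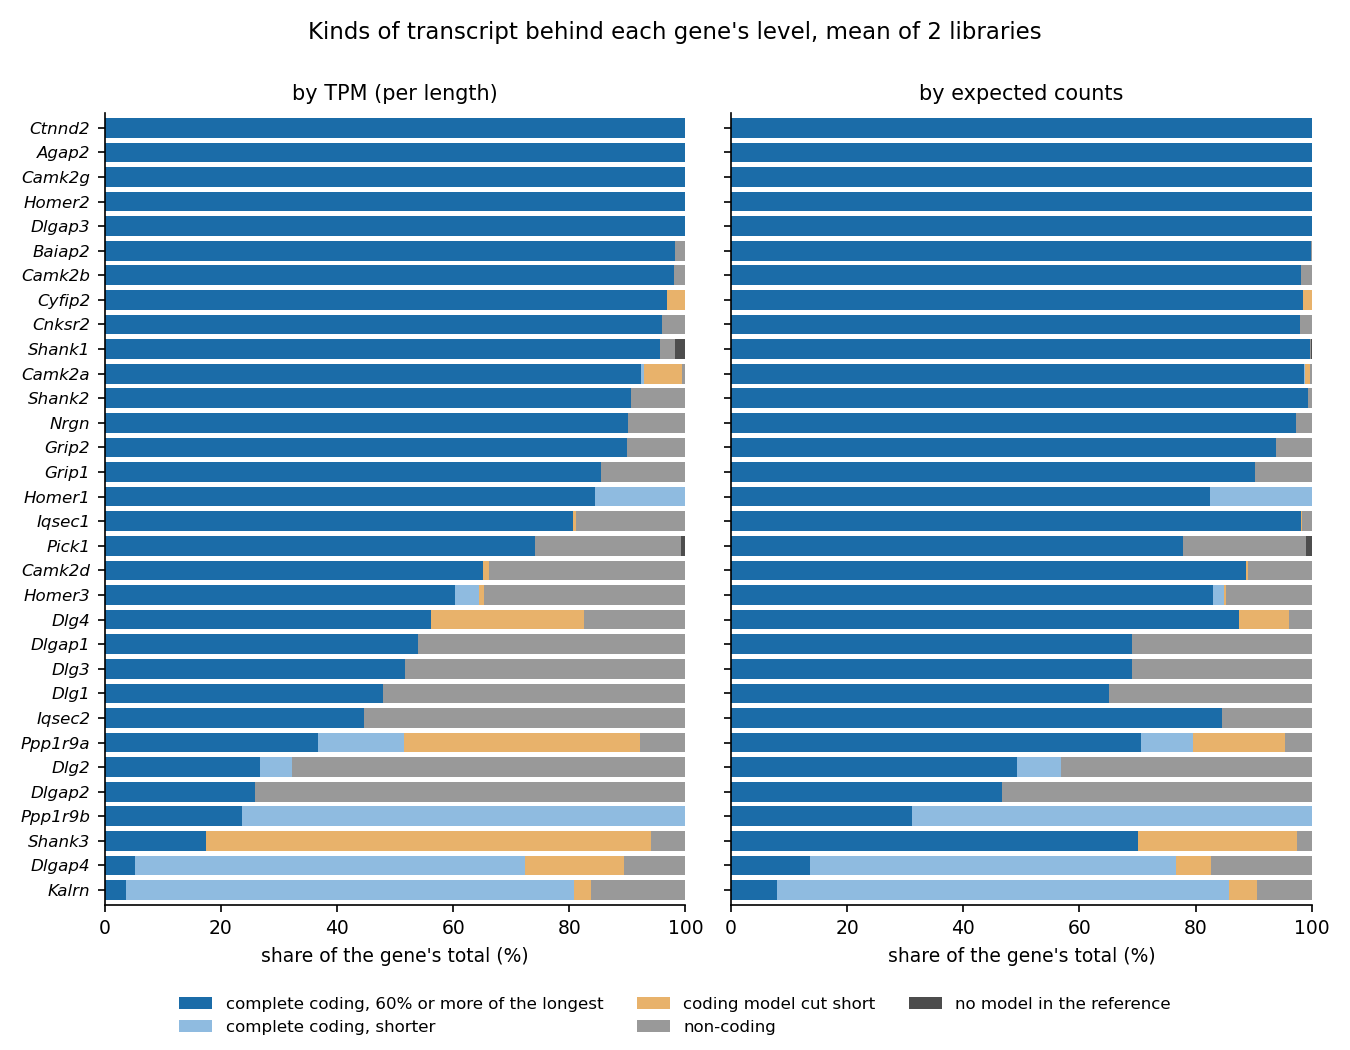
Share of each gene's TPM (left) and expected counts (right) in 5 kinds of transcript, as the mean of 2 libraries, ordered by the share of long forms in TPM. Genes at the top consist of long coding forms on both scales, while Shank3, Iqsec2 and Ppp1r9a have a much larger share of long forms by counts than by TPM, and Kalrn, Dlgap4 and Ppp1r9b stay low on both.

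The level of Dlgap4 was carried largely by short coding forms. Dlgap4-204, of 285 residues, held 54.9% and 55.0% of its TPM, with 3504 and 4021 expected counts. It starts 107 kb inside the gene, 31 bases past the CG-dense window printed above. Dlgap4-203, of 453 residues, starts nearby and held 10.1% and 7.62%. Long forms of Dlgap4 held 4.96% and 5.60% of TPM and 12.5% and 14.8% of counts, so the short forms prevailed on both scales. Summed over long forms, Dlgap4 had 11.4 and 12.7 TPM, against 14.9 and 16.3 TPM for Dlgap3 and 13.4 and 14.6 TPM for Dlgap1. Among long forms, the family was thus spread over 3 genes and led by Dlgap3 with 35.1 ± 0.175% of TPM. Dlgap3 also led at a limit of 80% of the longest coding sequence, but at 40%, where Dlgap4-203 counts as long, Dlgap4 led with 49.9%.

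The TPM of Shank3 was carried by a short model with few reads. Shank3-207 is a coding model of 135 residues that is cut short at its end in the annotation. It held 81.0% and 72.1% of Shank3 TPM but only 130 and 94.0 expected counts. The full-length Shank3-201, of 1730 residues, held 13.1% and 19.9% of TPM with 238 and 294 counts. The first exon of Shank3-207, at chr15:89532890-89533454, has 565 bases, of which 484 lie outside the exons of Shank3-201. In long forms alone, Shank3 had 2.11 and 1.94 TPM, below the 7.59 and 7.52 TPM of Shank2. That order turned at a limit of 80% of the longest coding sequence, where Shank2 had 0.52 and 0.93 TPM and Shank3 was as before, a log2 ratio of 1.54 for Shank3 over Shank2. Shank1 kept its lead with 75.1 ± 0.304% of the long-form TPM of the family, and its main form Shank1-203 held 95.5% and 95.7%.

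Among the DLG genes, long forms moved the lead to Dlg4. They summed to 10.5 and 11.4 TPM for Dlg4, 6.50 and 5.73 TPM for Dlg2, 5.77 and 6.15 TPM for Dlg1, and 4.11 and 3.78 TPM for Dlg3. Dlg4 exceeded the other 3 in both libraries on this scale, and its long-form TPM was the same at limits of 40% and 80%. Non-coding transcripts held 67.7% and 68.0% of Dlg2 TPM and 52.4% and 51.9% of Dlg1 TPM. By expected counts they held less, 43.1% and 43.3% for Dlg2 and 36.3% and 33.5% for Dlg1. The non-coding transcripts of Dlg1 include Dlg1-209, a nonsense-mediated decay model with 558 coding residues, at 17.6% and 15.1% of TPM. For the PDZ adaptors, long forms held 86.0% and 84.9% of Grip1 TPM and 88.2% and 91.6% of Grip2 TPM.

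**Figure D3:**
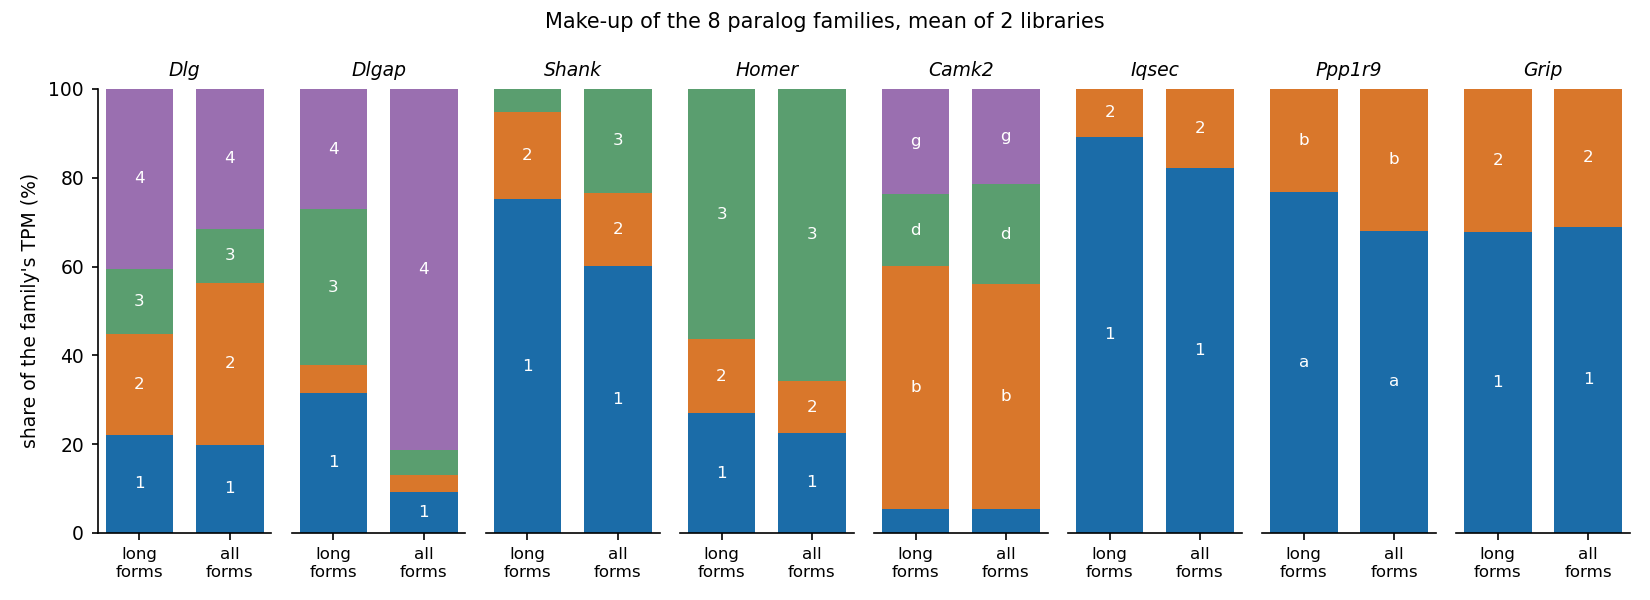
Share of each paralog in its family's TPM, for long forms (left bar of each pair) and for all transcripts (right bar), as the mean of 2 libraries, with each paralog marked by its number or letter. Dlgap4 falls to 27.1% of its family in long forms, against 81.4% over all transcripts, and Dlg4 takes the largest share of the DLG family in long forms, with 40.5%.

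Of the other genes below 50% in both libraries, Ppp1r9b had 74.8% and 78.0% of TPM in Ppp1r9b-202, a form of 393 residues, against 25.2% and 22.0% in the 817-residue Ppp1r9b-201. At a limit of 40% both forms count as long. Iqsec2 had 54.0% and 56.8% in Iqsec2-205, a non-coding transcript with 35.9 and 44.9 counts. Dlgap2 had 73.2% and 74.9% of TPM in non-coding transcripts, and 53.6% and 52.9% of counts. Kalrn forms that start more than 10 kb inside the gene held 98.5% and 98.3% of TPM. The longest one, Kalrn-201, of 2964 residues, had 0 counts in replicate 1 and 312 in replicate 2, so the division of reads among Kalrn forms differed strongly between the libraries. At a limit of 40% the long-form share of Kalrn was 36.7 ± 0.494% of TPM. Ppp1r9a, whose leading long form has 1095 residues, had 31.2% and 42.4% of TPM in long forms.

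The CaMKII genes were mainly in long forms, with 97.5% and 98.5% for Camk2b and 100% for Camk2g. Of Camk2d, 33.8% and 33.9% of TPM was non-coding, but 11.8% and 10.2% of counts. Summed over long forms, Camk2d had 34.0 and 42.5 TPM, below the 52.4 and 59.3 TPM of Camk2g. Inclusion was taken among forms that span an exon, non-coding ones among them. Forms that overlap the exon with other ends were left out. The 45-base exon of Camk2b printed above was included in 66.4% and 67.5% of TPM. The 75-base exon was included in 59.4% and 62.5%. The 60-base exon of Camk2d was included in 52.2% and 54.6%, the 69-base exon of Camk2g in 41.2% and 40.4%, and its 33-base exon in 37.2% and 30.6%. Both the including and the skipping forms of all 5 exons were therefore assigned reads in both libraries. The form with both Camk2b exons, Camk2b-209 of 542 residues, held 46.3% and 57.2%, and Camk2b-201 of 503 residues, which lacks both, held 26.9% and 27.7%.

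Homer1 consisted largely of the long, coiled-coil forms that link partners, at 77.9% and 81.9% of its TPM. The 5 annotated short forms, which include the activity-induced Homer1a type without a coiled coil, held 16.6% and 14.7%. Homer1-204, whose read-through is printed above, held 6.32% and 6.26%, with 55.3 and 58.0 counts. Long forms thus exceeded short ones in both libraries, by 6.56 against 1.40 TPM in replicate 1 and 6.27 against 1.12 TPM in replicate 2. Dlg3 gave a less stable picture, since its 54-base exon was included in 40.4% of TPM in replicate 1 and 20.9% in replicate 2.

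Genes with 1 dominant form included Agap2 and Ctnnd2 with 1 transcript each, Homer2-201 with 94.1% and 100% of TPM, Dlgap3-201 with 96.3% and 95.7%, Grip2-205 with 88.2% and 91.6%, Nrgn-201 with 89.2% and 91.0%, and Cyfip2-202 with 88.7% and 89.8%. Grip1-205, which starts 366 kb inside the gene and encodes 1060 residues, held 64.8% and 68.2% of Grip1 TPM. Shank2-202, of 1472 residues, held 49.3% and 55.8%, while the 1841-residue Shank2-203 held 6.16% and 11.2%. Cnksr2-202, of 896 residues, held 59.9% and 65.6%, ahead of the 1032-residue Cnksr2-201 at 35.3% and 31.0%. Pick1-201 held 71.1% and 70.7%. Of 28 members with several transcripts and at least 5 TPM in each library, the leading one differed between the libraries for 6, or 21.4%, against 7.36% of 8248 genes. The 6 were Dlg2, Dlg3, Dlgap1, Dlgap2, Ppp1r9a and Baiap2. The median share of the leading transcript was 53.8% for the 28 members, against 67.6% for the 8248 genes. By expected counts the leading transcript was the same in both libraries for 27 of 28, and the share over all genes was not computed on that scale.

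Between the pools, 0 of the 32 genes passed 1.5-fold, replicate 1 over replicate 2 on TMM-scaled expected counts, while 3.44% of 14412 genes did. Past a log2 ratio of 0.32 in either direction were 3 members, Camk2d, Grip2 and Nrgn, against 13.2% of genes. Nrgn had 270 counts in replicate 1 and 420 in replicate 2, a ratio of 0.730. Grip2 had 577 and 883 counts, a ratio of 0.742, and Camk2d had 2887 and 4139, a ratio of 0.792. All 3 were lower in replicate 1, as were 19 of the 32 genes, or 59.4%, against 7478 of the 14412 genes, or 51.9%. The 16 calmodulin and calcineurin genes were also lower in replicate 1, with a median log2 ratio of -0.16, against -0.0079 over all genes compared. Scaled by spike-in counts, all 32 members were higher in replicate 1, as were 14131 of the 14412 genes.

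On deposited TPM, 6 members passed the log2 ratio of 0.32, against 14.8% of genes, since Dlg3, Dlg4 and Shank3 joined them. Shank3 had a TPM ratio of 1.43 and a count ratio of 1.18. Dlg4 had a TPM ratio of 1.29 and a count ratio of 0.959, so the direction turned with the scale. Dlg3 had 1.32 by TPM and 1.06 by counts, and Ppp1r9a had 1.23 and 1.03. The mean transcript length used for these genes differed between the libraries, for Dlg4 1824 bases in replicate 1 and 2368 bases in replicate 2. A short non-coding Dlg4 transcript, Dlg4-207, held 13.0% of TPM with 10.9 counts in replicate 1 and 0 in replicate 2. Long forms of Dlg4 differed little, with 10.5 and 11.4 TPM.

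**Figure D4:**
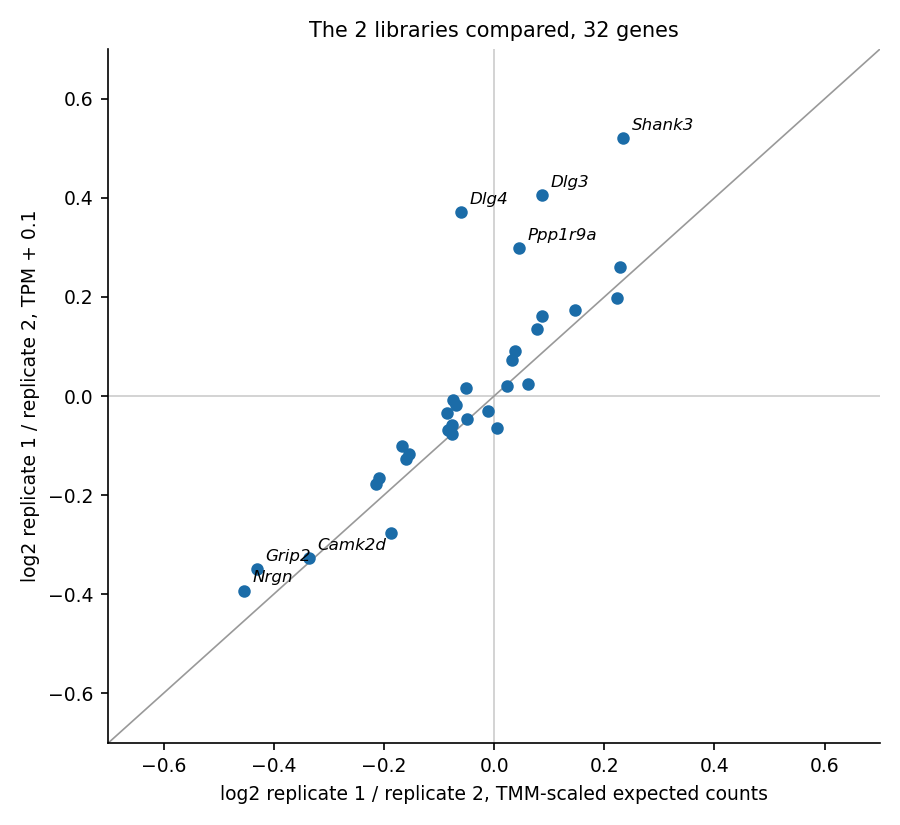
Log2 ratio of replicate 1 over replicate 2 for the 32 genes, from TMM-scaled expected counts (horizontal) and from TPM + 0.1 (vertical), with the diagonal of equal ratios. Shank3, Dlg3, Dlg4 and Ppp1r9a lie well above the diagonal, and Nrgn, Grip2 and Camk2d lie lowest on both axes.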

How the data were processed

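The 2 midbrain libraries were analysed as 1 group from their gene and transcript tables. Per the deposited readme, reads were aligned to mm10 and quantified against GENCODE M4 with spike-ins. For the aligner, the quantifier, their versions and the use of strand, nothing is given in the sources used here. Per the file headers, the deposited expected counts are estimated reads per feature, not normalized. Deposited TPM is, per the file headers, abundance scaled for effective length and to 1 total per library, spike-ins included, with credibility bounds of unstated level. Per the file headers, the deposited isoform share is a percent of its gene's TPM.

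The 32 members and the other lists were chosen with earlier results of these data known. Every member is named, with the genes of the listed ratios, leading transcripts, and from the other lists those of note, such as Arc, chosen after their values were seen. Symbols, coordinates, coding lengths and transcripts came from GENCODE M21 on GRCm38, the assembly of mm10. Of 279 member transcripts, 276 had an M21 model and 229 the same length in both releases. Lengths differed for Dlg1-206, Dlg2-204, Dlg4-201, Shank1-203, Homer1-202, Homer2-201, Camk2d-202, Camk2g-203, Iqsec1-202, Kalrn-212 and Ctnnd2-201, so their residues are those of M21.

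Detection was TPM of at least 1 in both libraries. Pools were compared on expected counts plus 0.5, rounded for TMM scaling (edgeR 4.0.16), for genes with a mean count of at least 50. DESeq2 1.42.0 size factors, deposited TPM and ERCC spike-in scaling were alternatives. The ratio was tested on data simulated with counting noise alone, which cannot show how far pools vary. Whether the replicates are separate litters is not given, so the SD may be partly technical. Calculations used Python 3.11.15, pandas 2.3.3 and R 4.3.3. The inhibitory list gene Insyn2a was not matched and is not analysed here.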

Additional observations from a re-analysis of the deposited data

How the results depend on the processing

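Of 36 recomputed summary values, 31 stayed within the set margin and 5 moved. The margin was 1.5-fold for a count and the SD for the median level, so a count can stay while its members change. Of the single family shares and ratios, 92 stayed, 76 moved, and 8 were sign changes of ratios larger than their spread. Single values with a replicate left out lie within the SD by construction. They are counted in the 92 and make up most of it, so the 92 overstates how many values stayed. The median level of the 32 genes, 16.1 TPM, was 33.1 without length correction, on a scale of expected counts over the library's Ensembl total, 16.9 TPM without spike-ins in the total and 11.7 TPM in long forms alone, a setting chosen after seeing the data. It was 15.8 to 16.4 TPM with either replicate left out. The number of members past 1.5-fold between pools was 0, and 3 at a log2 threshold of 0.32. Scaled by spike-in counts it was 14, a scale that moved the median log2 ratio of all genes to 0.59 and put 51.6% of them past 1.5-fold. The number of paralog families whose leader held 50% or more in both libraries was 6 of 8, and 6 to 7 with a replicate left out. In long forms at 60% it was also 6, although 2 of the families had another leader. It was 5 without length correction, where Homer2 led the HOMER genes in place of Homer3, and 5 in long forms at 80%, where Dlg4 and Dlgap3 led in place of Dlg2 and Dlgap4. Of 18 ratios, 11 were positive, as with either replicate left out.

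Single ratios changed sign in 11 cases, 3 of them for Dlg2 over Dlg4, whose 0.21 is within its spread: -0.84 in long forms at 60%, -0.57 at 40% and -0.86 at 80%. Without length correction, the log2 ratio was -1.56 for Shank3 over Shank2, -0.85 for Homer1 over Homer2 and -0.21 for Homer3 over Homer2, where division by model length is the only difference. In long forms at 60% of the longest coding sequence, Shank3 over Shank2 was -1.90, Dlgap1 over Dlgap4 0.22 and Dlgap3 over Dlgap4 0.37. At 40% Shank3 over Shank2 was -1.90, and at 80% it was 1.54, while Dlgap3 over Dlgap4 was 0.37. Long-form alternatives sum fewer transcripts by construction. No paired analysis was possible because there is 1 group. All 32 members were detected under each threshold and library tried. The leading transcript was shared in 21 to 27 of 28 members across share scales, in 24 of 30 at 1 TPM, and the overall leader led in 24 and 26 of 28 with a replicate left out. Depth limits the rarer isoforms, such as Homer1-204 with 55.3 and 58.0 expected counts.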
